A study of Mus musculus with 22 samples.

Results

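MHC class I and immunoproteasome genes were examined in sort-purified mouse lung epithelial cells (ECs). The 10 genes, of 54373 listed and 21793 protein-coding, were taken by symbol and matched to the Ensembl identifiers of both count tables, and all 10 passed the filter on low counts in every fit. They are the class I heavy chains H2-K1 and H2-D1, their light chain B2m, the peptide transporter subunits Tap1 and Tap2, the loading factor Tapbp, the induced proteasome subunits Psmb8, Psmb9 and Psmb10, and the transactivator Nlrc5.

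The ECs were sorted as live CD45-CD31-EpCAM+ cells from C57BL/6 wildtype (WT) mice and from AhR-/- and CYP1B1-/- mice backcrossed to C57BL/6, which lack the aryl hydrocarbon receptor or cytochrome P450 1B1, and both sexes were used in the study. Mice were at steady state (naive in the labels) or had allergic airway inflammation after intranasal sensitization and challenge with house dust mite (HDM) extract. The steady-state table holds 4 WT, 3 AhR-/- and 3 CYP1B1-/- libraries, and the HDM table holds 4 of each genotype. The 2 tables are separate sequencing runs, so state and run cannot be told apart. Labels name the libraries as separate samples but not the mice behind them, so p-values measure the spread between these libraries, which may in part be technical.

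Of the 10 genes, 7 lie in the major histocompatibility complex on chromosome 17 (GRCm38), where Psmb9 (chr17:34181987-34187764, minus strand), Tap1 (chr17:34187553-34197225, plus strand), Psmb8 (chr17:34197721-34201454, plus strand) and Tap2 (chr17:34203527-34216321, plus strand) are neighbours. Tapbp (chr17:33915899-33929292) and H2-K1 (chr17:33996017-34000347, minus strand) lie to one side of them and H2-D1 (chr17:35262730-35267499) to the other. B2m is on chromosome 2 (chr2:122147686-122153083), and Nlrc5 (chr8:94434356-94527272) and Psmb10 (chr8:105935735-105938444, minus strand) are on chromosome 8.

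Class I molecules show peptides from inside the cell to CD8+ T cells. The proteasome makes the peptides, and in cells exposed to interferon-gamma its constitutive catalytic subunits are replaced by the induced subunits. TAP1 and TAP2 carry the peptides into the endoplasmic reticulum, where tapasin, the product of Tapbp, holds the empty class I molecule at the transporter until it is loaded. NLRC5 is a transactivator of class I genes that acts at the SXY module of their promoters. Hematopoietic cells express these genes strongly, while resting epithelium expresses them at lower levels.

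Upstream sequences are shown for the class I chains because their windows carry matches to sites of known class I regulation. They are the 250 bases before the RefSeq start sites (GRCm38.p6), which were listed for 8 of the 10 members and not for Tap2 and Nlrc5. Capitals mark matches, on either strand, to the IRF core AANNGAAA, the interferon-gamma activated site TTCNNNGAA, the kappaB motif GGGNNTTCC, the cyclic AMP response element core TGACG and the Y box core ATTGG. None of the marked matches overlap each other. The first of the 2 listed H2-K1 starts (chr17:34000348-34000597, minus strand) and the B2m start (chr2:122147437-122147686, plus strand) have these windows:
H2-K1: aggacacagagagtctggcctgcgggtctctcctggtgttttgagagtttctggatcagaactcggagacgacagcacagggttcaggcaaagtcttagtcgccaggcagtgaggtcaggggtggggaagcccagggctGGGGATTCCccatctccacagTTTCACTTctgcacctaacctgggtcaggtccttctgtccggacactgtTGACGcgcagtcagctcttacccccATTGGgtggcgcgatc
B2m: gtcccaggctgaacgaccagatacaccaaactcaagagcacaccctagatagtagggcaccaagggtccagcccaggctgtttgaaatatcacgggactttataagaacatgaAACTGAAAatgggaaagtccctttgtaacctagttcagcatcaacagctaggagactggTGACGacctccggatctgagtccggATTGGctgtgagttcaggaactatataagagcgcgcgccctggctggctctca

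In these windows TGACG and ATTGG stood 25 bases apart, first base to first base, on the same strand, and so they did in H2-D1. The 3 stretches are set out for comparison, from the first base of TGACG to the last base of ATTGG. They lie at chr17:34000359-34000388 (minus strand), chr17:35262993-35263022 (plus strand) and chr2:122147609-122147638 (plus strand), and that of H2-D1 falls inside the first exon of a longer transcript in GENCODE M21.
H2-K1: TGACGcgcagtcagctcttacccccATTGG
H2-D1: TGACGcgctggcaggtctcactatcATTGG
B2m: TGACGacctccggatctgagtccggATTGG
H2-K1 and H2-D1 were identical at 23 of these 30 bases and H2-K1 and B2m at 13. Of 32841 windows of this length, 30 (0.0913%) held both motifs at this spacing. The spacing was read from the members' windows, which are among the 30 with both listed H2-K1 starts, so this share is a description. TGACG alone was in 17.8% of windows and in 5 of the 8 members listed, and ATTGG alone in 33.9% and in 6. Both tallies count 1 site for Tap1 and again for Psmb9, whose windows overlap.

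The heavy chains also share a stretch from the kappaB motif to the IRF core, at chr17:34000430-34000458 and chr17:35262923-35262951, identical at 28 of 29 bases:
H2-K1: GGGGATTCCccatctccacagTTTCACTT
H2-D1: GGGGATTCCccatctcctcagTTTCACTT
The kappaB motif was in 4.98% of all windows and the IRF core in 21.3%. The IRF core was also found in B2m, and an interferon-gamma activated site, held by 7.02% of windows, was found in Psmb8 alone of the 8. Tap1 and Psmb9 are transcribed in opposite directions and their windows share 225 bases (chr17:34187331-34187555), with the TGACG and the ATTGG match of both genes in the shared part. Psmb10 had no match, and over their aligned bases the windows of H2-K1 and H2-D1 were 89.5% identical. These matches describe letters in a window and not bound sites.

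Total counts ranged from 9654825 to 17878442 per library. A single predicted gene, Gm10800, took 9.54% to 29.2% of counts at steady state and 0.00819% to 71.9% after HDM, and the effective library size, after trimmed mean of M-values (TMM) scaling, was 2197984 in AhR-/- HDM replicate 3 and 27909963 in AhR-/- HDM replicate 1. Of the sorted cells' markers, the summed level of 14 epithelial genes in CPM (counts scaled to the effective library size) was 10520 to 26094 at steady state and, after HDM, 4704 to 27771 in WT, 21444 to 85302 in AhR-/- and 6217 to 44074 in CYP1B1-/-. That of 24 hematopoietic genes, which the sort should have removed, was 436 to 1769 CPM at steady state and 927 to 9236 after HDM. Lyz2, which alveolar type 2 cells also express, made up 13.8% to 93.5% of this sum, and without it the sum was 271 to 598 CPM at steady state and, after HDM, 1994 to 6188 in WT, 293 to 1394 in AhR-/- and 410 to 6227 in CYP1B1-/-. Y-linked genes were read in all steady-state libraries and, after HDM, in AhR-/- replicates 3 and 4 only, where Ddx3y was at 67.3 and 69.6 CPM against at most 0.0859 in the other HDM libraries. Ahr was at 17.1, 15.5 and 20.1 CPM at steady state in AhR-/- libraries against 6.38 to 12.3 in WT, and after HDM at 25.1, 12.8, 25.5 and 23.9 against 9.62 to 20.0. Cyp1b1 was at 3.62 to 5.89 CPM at steady state in CYP1B1-/- libraries against 0.644 to 1.91 in WT, and after HDM at 4.98 to 13.5 against 0.897 to 2.31. Neither targeted gene was lower in its knockout. Counts are summed over whole genes and the deleted parts are not given in the sources used here, so they do not check the labels, and AhR-/- and CYP1B1-/- stand throughout for the libraries labelled so.

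At steady state Nlrc5 was the lowest member, at 9 to 38 counts per library, and CYP1B1-/- replicate 2 stood apart from the other 9 libraries for B2m, Tapbp and Psmb10. Per kilobase of exon, the order of mean levels in WT was B2m (1626 CPM per kb), H2-D1 (255), H2-K1 (82.9), Tapbp (63.2), Tap2 (6.72), Psmb8 (5.15), Psmb10 (3.96), Tap1 (3.26), Psmb9 (2.03) and Nlrc5 (0.145). The steps from B2m to H2-D1 and from H2-D1 to H2-K1 were far larger than the spread between libraries. The steps from H2-K1 (SD 15.1, n = 4) to Tapbp (SD 7.53, n = 4), from Tap2 (SD 0.970) to Psmb8 (SD 0.916), from Psmb8 to Psmb10 (SD 0.669) and from Psmb10 to Tap1 (SD 0.435) were each smaller than the sum of the SDs of the neighbours, so these ranks are not resolved.

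Tap1, the first transporter subunit, was at 19.0, 15.4, 16.4 and 20.6 CPM in WT replicates 1 to 4, at 15.3, 15.7 and 16.2 in AhR-/- replicates 1, 3 and 4, and at 18.6, 19.5 and 18.3 in CYP1B1-/- replicates 2, 3 and 4. Both knockouts overlapped WT, while all 3 AhR-/- values lay under all 3 CYP1B1-/- values (log2 fold change -0.21, adjusted p = 0.936), and no other member separated these 2 groups at steady state. Psmb9, one of the induced proteasome subunits, ranged from 5.96 to 8.48 CPM over the 10 libraries, and Psmb8 had means of 17.4 in WT, 17.5 in AhR-/- and 17.8 in CYP1B1-/-. H2-K1 ranged from 198 to 304 CPM and H2-D1 from 581 to 835.

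No member passed the test between genotypes at steady state. In the comparison of AhR-/- with WT, the log2 fold changes of the 10 members ran from -0.86 to 0.10, with a median of -0.04 against -0.00580 over all 15547 genes tested, and 0 members passed an adjusted p of 0.05 (edgeR's quasi-likelihood test, background 0% of genes called). No member had an unadjusted p under 0.05. For CYP1B1-/- against WT the fold changes ran from -0.17 to 0.23 on the log2 scale and 0 members were called, as were 0.0129% of genes. AhR-/- against CYP1B1-/- gave 0 members and 0.00643% of genes. These 3 comparisons share libraries. The widest 95% confidence interval in the first, that of Nlrc5, ran from -1.90 to 0.18, and those of the other members stayed between -0.94 and 0.94.

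Nlrc5 had the largest log2 fold change of AhR-/- against WT at steady state. It was at 1.43, 1.48, 1.02 and 1.01 CPM in WT and at 0.779, 0.747 and 0.554 in AhR-/-, so that its log2 fold change was -0.86 (SE 0.48, adjusted p = 0.9999). All 3 AhR-/- libraries were under the 4 WT libraries, while the CYP1B1-/- libraries, at 2.69, 1.22 and 0.707, overlapped both. B2m set 1 library apart. CYP1B1-/- replicate 2 was at 371 CPM while the other 9 libraries were at 1210 to 1821, and it was also lowest for Tapbp (132 against 207 to 301), Psmb10 (2.77 against 4.88 to 8.87) and Psmb8 and highest for Nlrc5. Gm10800 took 29.2% of its counts, the highest share among steady-state libraries.

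**Figure D1:**
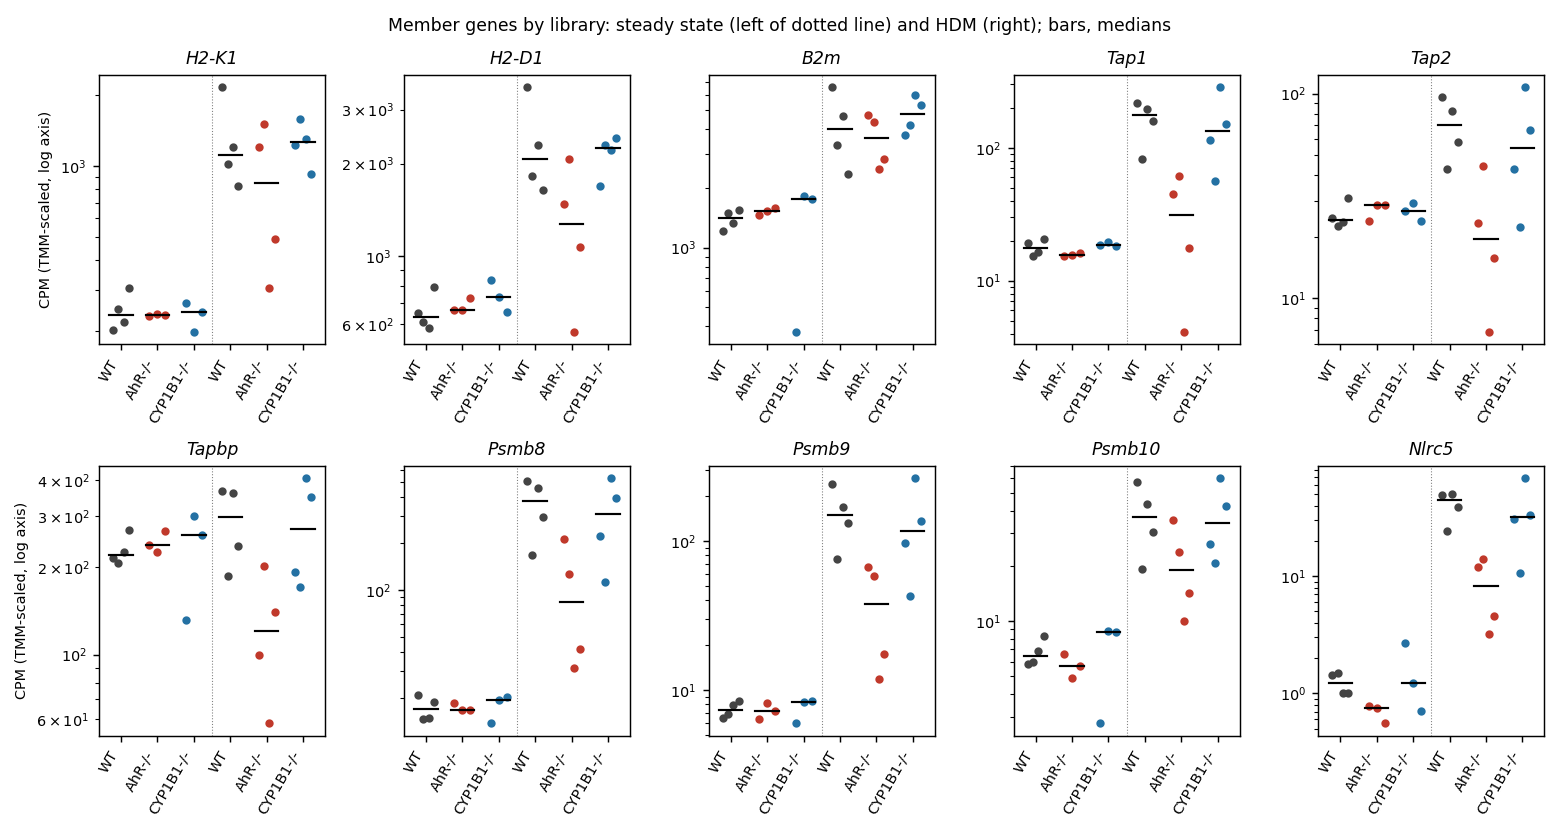
Levels of the 10 members in CPM (vertical axes, log scale, 1 panel per gene) in each library, by genotype, with steady state left of the dotted line and HDM right of it, and bars at group medians. In the Tap1 panel the 4 AhR-/- HDM libraries, at 4.09 to 61.7 CPM, all sit under the 4 WT HDM libraries, at 82.2 to 218.

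After HDM, 9 of the 10 members rose in WT ECs, from H2-K1 to Nlrc5, and Tapbp did not pass the test. The background was 19.0% of genes higher and 19.4% lower. The members' median log2 fold change was 2.45 against -0.11 over all 16639 genes, so changes are read relative to that small shift. The same 9 members had all 4 HDM libraries above all 4 steady-state libraries, as had 17.7% of genes.

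The heavy and light chains rose least among the called members together with Tap2, though the step from H2-K1 to Psmb10 (log2 fold change 2.48, SE 0.42) is not resolved. H2-K1 was at 2160, 1023, 1197 and 825 CPM after HDM against 203 to 304 at steady state, a 5.34-fold rise (log2 fold change 2.42, standard error [SE] 0.42, adjusted p = 0.000101). H2-D1 rose 3.54-fold (adjusted p = 0.000412), from 659 ± 93.4 CPM (SD, n = 4) to 2335 ± 865 (SD, n = 4). B2m rose 3.03-fold (adjusted p = 0.00654), from 1399 ± 157 (SD, n = 4) to 4239 ± 1829 (SD, n = 4). H2-K1 and H2-D1 share 9.63% and 12.8% of their 50-base exon stretches with other genes, mainly class I genes, so their counts may be split between copies.

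The transporter and loading genes moved unequally. Tap1 was at 218, 82.2, 196 and 158 CPM after HDM, 9.15-fold above steady state (log2 fold change 3.19, SE 0.54, adjusted p = 8.05e-05). Tap2 was at 96.0, 42.6, 82.5 and 58.1 CPM and rose 2.75-fold (adjusted p = 0.00859). Tapbp was at 368, 186, 360 and 237 CPM after HDM and at 207 to 269 at steady state, with overlapping groups and a log2 fold change of 0.33 (SE 0.36, adjusted p = 0.516). Of the exon bases of Tapbp, 24.9% lie opposite Gm19412, and the library preparation did not mark strand.

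Nlrc5, Psmb9 and Psmb8 had the highest folds of the 10 members in WT, and Psmb10 came after Tap1. Psmb8, the induced counterpart of Psmb5, was at 503, 170, 456 and 298 CPM after HDM against 17.4 ± 3.10 (SD, n = 4) at steady state, a 20.5-fold rise (log2 fold change 4.36, SE 0.56, adjusted p = 8.41e-06). Psmb9, the counterpart of Psmb6, was at 240, 76.1, 169 and 131 CPM and rose 20.7-fold (adjusted p = 7.83e-06). Psmb10, the counterpart of Psmb7, rose 5.58-fold (adjusted p = 7.97e-05), from 6.75 ± 1.14 CPM (SD, n = 4) to 37.6 ± 16.3 (SD, n = 4). Nlrc5 was at 49.6, 24.4, 50.2 and 39.2 CPM after HDM and rose 33.0-fold (log2 fold change 5.04, SE 0.54, adjusted p = 4.86e-06). WT replicate 2 was the lowest of the 4 WT HDM libraries for these 4 genes. Per kilobase, Psmb8 passed Tapbp and stood at 106 CPM per kb against 79.3, a step within the spread of both (SD 45.1 and 25.0, n = 4).

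In CYP1B1-/- ECs, 8 members rose after HDM (background 15.5%), all but Tap2 and Tapbp, and 8 had all HDM libraries above all steady-state libraries (background 14.2%). Their log2 fold changes were 4.57 for Nlrc5, 4.15 for Psmb9, 4.14 for Psmb8 and 3.02 for Tap1, beside 5.04, 4.37, 4.36 and 3.19 in WT, and that of Tap2 was 1.18 (SE 0.46, adjusted p = 0.0546). In AhR-/- ECs, 5 members rose (background 10.6%), namely H2-K1, Psmb8, Psmb9, Psmb10 and Nlrc5, and 6 had all HDM libraries above all steady-state libraries (background 12.7%). The called rises were 3.73-fold for H2-K1, 5.97-fold for Psmb8, 5.38-fold for Psmb9, 3.71-fold for Psmb10 and 12.6-fold for Nlrc5. For Tap1 the log2 fold change was 1.06 (SE 0.56, adjusted p = 0.183), for Tap2 it was -0.22 (adjusted p = 0.771) and for Tapbp -0.97 (adjusted p = 0.0815). H2-D1 (0.91, adjusted p = 0.105) and B2m (1.24, adjusted p = 0.0729) did not pass either. The count in AhR-/- ECs was 8 without HDM replicate 3, all higher, in a fit that called 21.1% of genes in either direction. Tests of the difference between genotypes in this rise are given further on.

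**Figure D2:**
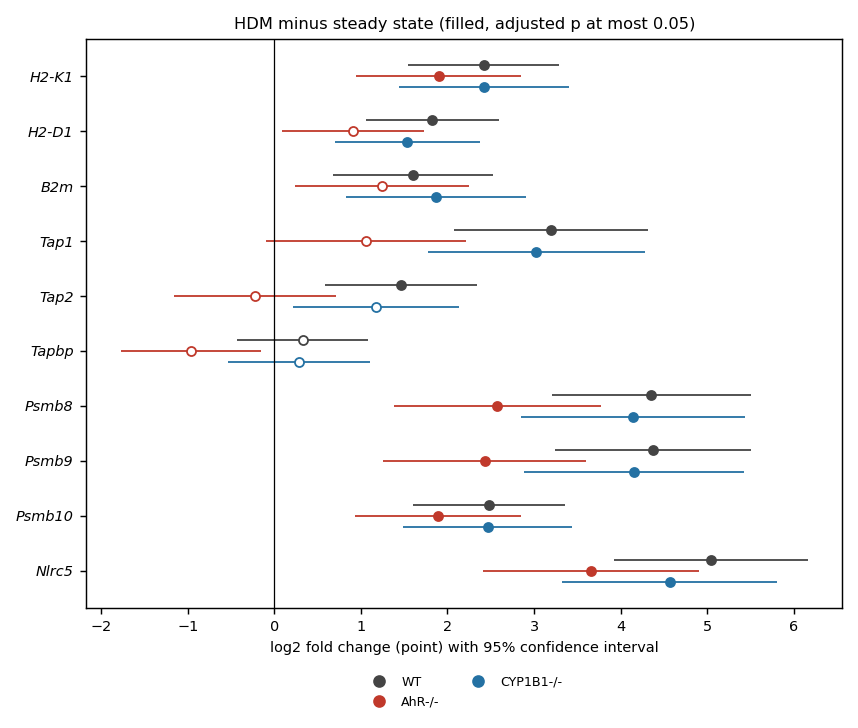
Log2 fold changes of HDM against steady state (horizontal axis) for each member (rows) in WT, AhR-/- and CYP1B1-/- ECs, with 95% confidence intervals and filled points at an adjusted p of at most 0.05. Filled points number 9 in WT, 8 in CYP1B1-/- and 5 in AhR-/-, where H2-D1, B2m, Tap1, Tap2 and Tapbp are open.

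The summed level of 4 Y-linked genes was 66.6 to 250 CPM in the steady-state libraries and at most 0.256 in WT and CYP1B1-/- HDM libraries, so in these genotypes the sex of the mice and the state cannot be told apart either. The hematopoietic markers also moved with the state. Of the 24, 18 were higher after HDM in WT and 0 lower, their mean log2(CPM + 1) was 1.29 to 3.93 at steady state and 5.30 to 6.26 after HDM, and Ptprc, which encodes CD45, was at 2.02 to 52.6 and 209 to 637 CPM. Of 14 epithelial genes in WT, 2 were higher and 6 lower, of 6 mesenchymal genes 0 and 4, and of 6 endothelial genes 1 and 1. In AhR-/- 18 hematopoietic genes were higher and 1 lower, and 4 epithelial genes were higher and 1 lower. In CYP1B1-/- these were 19 and 1, and 4 and 7. With the hematopoietic mean as a covariate, 1 member was called in WT, 0 in AhR-/- and 0 in CYP1B1-/-, and the same fits called 0.325%, 2.44% and 1.62% of all genes. In RNA of a bulk sort, fewer cells of a type and less RNA per cell cannot be told apart.

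Among the HDM libraries, 6 of the 10 members were lower in AhR-/- than in WT and 0 were higher. The 6 were Tap1, Tap2, Tapbp, Psmb8, Psmb9 and Nlrc5. Over all 14161 genes tested 12.9% were lower and 9.22% higher. The members' median log2 fold change was -1.38 against -0.00175 over all genes, and all 10 were negative. An unadjusted p under 0.05 was found for 7 members and 38.8% of all genes. Class I chains and Psmb10 did not pass.

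Tap1 was at 45.2, 61.7, 4.09 and 17.7 CPM in AhR-/- HDM replicates 1 to 4 against 82.2 to 218 in WT, 4.98-fold lower (log2 fold change -2.32, SE 0.63, adjusted p = 0.0296). All 4 AhR-/- libraries were below all 4 WT libraries. The value of replicate 3 rests on 9 counts. Tap2 was at 23.4, 44.1, 6.82 and 15.7 CPM, 3.00-fold lower (adjusted p = 0.0386), and its replicate 2 lay within the WT range of 42.6 to 96.0. Tapbp was at 100, 201, 57.8 and 140 CPM, 2.26-fold lower (adjusted p = 0.0391), with replicate 2 above the lowest WT library.

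Psmb9 was at 66.5, 58.1, 11.8 and 17.5 CPM in AhR-/- against 76.1 to 240 in WT, 3.92-fold lower (log2 fold change -1.97, SE 0.56, adjusted p = 0.0334). Psmb8 was at 215, 127, 31.4 and 41.9 CPM, 3.41-fold lower (adjusted p = 0.0438), and replicate 1 lay within the WT range of 170 to 503. Nlrc5 was at 11.9, 14.0, 3.18 and 4.59 CPM against 24.4 to 50.2, 4.63-fold lower (log2 fold change -2.21, SE 0.49, adjusted p = 0.0261). Its values in AhR-/- replicates 3 and 4 rest on 7 and 26 counts. Tap1, Psmb9 and Nlrc5 were the 3 members whose groups did not overlap, against 9.91% of genes with all 4 AhR-/- libraries below all 4 WT libraries.

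The 4 members that did not pass had log2 fold changes of -0.81 for Psmb10 (SE 0.36, adjusted p = 0.119), -0.84 for H2-D1 (0.42, adjusted p = 0.164), -0.56 for H2-K1 (0.49, adjusted p = 0.436) and -0.20 for B2m (0.44, adjusted p = 0.785). Their 95% confidence intervals reached down to -1.59, -1.75, -1.63 and -1.15. H2-K1 was at 1199, 1502, 304 and 492 CPM in AhR-/- and B2m at 4748, 4373, 2514 and 2835. Replicates 1 and 2 lay within the WT range for H2-K1 and all 4 did for B2m, and replicate 3 was the lowest of the 4 for all 10 members.

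AhR-/- replicates 3 and 4 are the HDM libraries with Y-linked reads, and Gm10800 took 71.9% and 62.7% of their counts. Without both, 0 members and 0 of all genes were called. An unadjusted p under 0.05 was left for 4 members, with log2 fold changes of -1.63 for Tap1, -1.32 for Psmb9, -1.69 for Nlrc5 and -0.95 for Tapbp. Without the 5 HDM libraries in which Gm10800 took over 60% of counts (AhR-/- replicates 3 and 4, CYP1B1-/- replicates 1 and 2 and WT replicate 2), 3 members were called, Tap1 at -1.69 (adjusted p = 0.0225), Psmb9 at -1.39 (0.0399) and Nlrc5 at -1.71 (0.0209), and 12.3% of all genes were called in that fit. Leaving out AhR-/- replicate 1, 3 or 4 or WT replicate 3 or 4 gave 0 called members, with 6 or 7 at an unadjusted p under 0.05, and 0 called genes in all. With all libraries 38.8% of all genes had an unadjusted p under 0.05. That share is not given here for the fits with libraries left out, so their member counts are not read as results about the members. Leaving out WT replicate 1 gave 1 called member, Nlrc5 (adjusted p = 0.0497), with 6.13% of genes called.

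**Figure D3:**
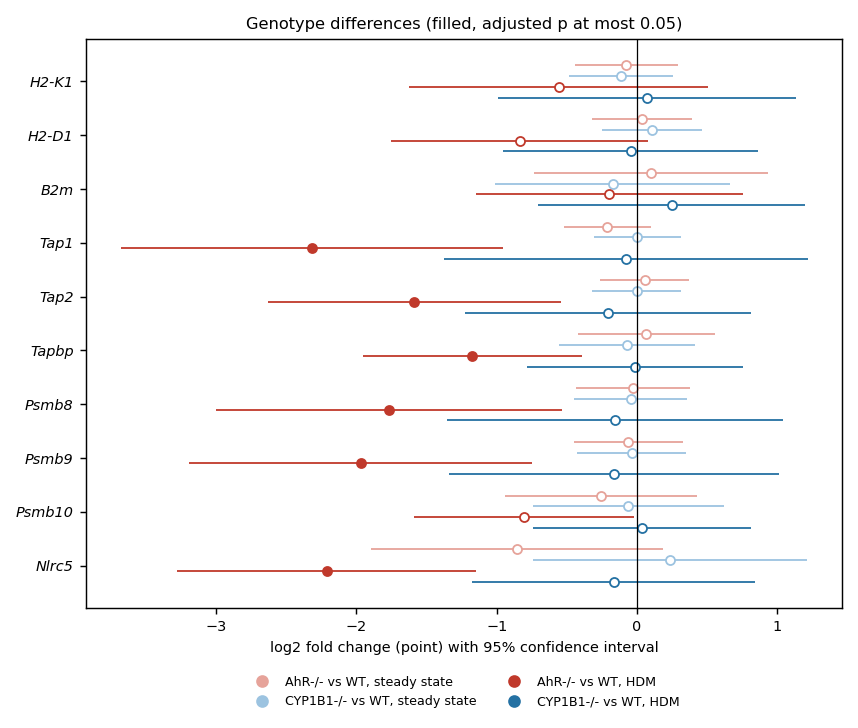
Log2 fold changes of AhR-/- and CYP1B1-/- against WT (horizontal axis) for each member (rows) at steady state and after HDM, with 95% confidence intervals and filled points at an adjusted p of at most 0.05. The 6 filled points belong to AhR-/- after HDM and run from -2.32 for Tap1 to -1.17 for Tapbp.

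The hematopoietic markers were also lower in this comparison. Of 23 tested, 7 were lower and 0 higher in AhR-/- than in WT after HDM. Their mean log2(CPM + 1) was 6.26, 5.35, 6.07 and 5.30 in WT, 4.95, 5.49, 3.42 and 2.90 in AhR-/- and 4.85, 3.74, 5.97 and 5.73 in CYP1B1-/-. Of the 24, 0 to 3 were at 0 in an AhR-/- library, 0 or 1 in WT and 0 in CYP1B1-/-. Ptprc was at 436, 209, 637 and 365 CPM in WT and at 161, 99.2, 27.8 and 14.8 in AhR-/-. With this mean as a covariate 0 members and 0 of all genes were called. An unadjusted p under 0.05 was left for 3 members, the log2 fold changes being -1.39 for Tap1, -0.90 for Psmb9 and -1.36 for Nlrc5. The share of all genes under that p in this fit is not given here. Of 14 epithelial markers, 2 were higher and 0 lower, of 6 endothelial markers 0 and 1, and of 6 mesenchymal markers 0 and 0. Called or not, 13 epithelial, 3 endothelial and 6 mesenchymal markers had a positive log2 fold change, with medians of 1.26, 0.52 and 1.03. The median of the hematopoietic markers was -1.89.

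**Figure D4:**
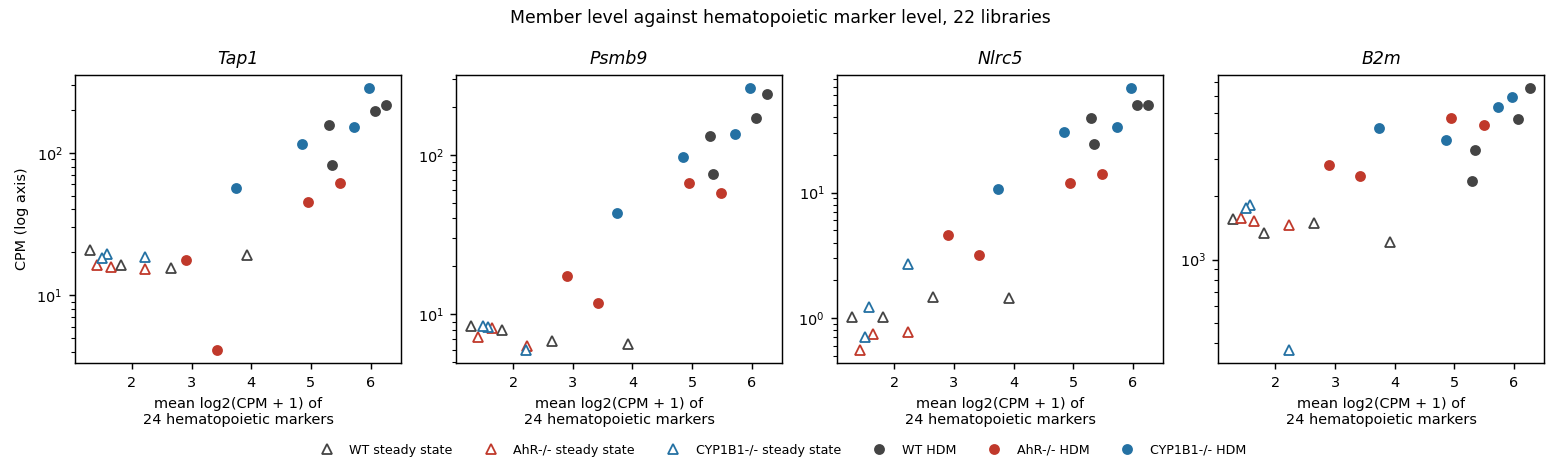
Level in CPM (vertical axes, log scale) of Tap1, Psmb9, Nlrc5 and B2m in each of 22 libraries against the mean log2(CPM + 1) of 24 hematopoietic markers (horizontal axis), with open triangles for steady state and filled circles for HDM. The AhR-/- HDM libraries lie at means of 2.90 to 5.49 and the WT HDM libraries at 5.30 to 6.26, and the 4 AhR-/- libraries lie under the 4 WT libraries in the Tap1, Psmb9 and Nlrc5 panels and overlap them in the B2m panel.

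No member passed the test between CYP1B1-/- and WT ECs after HDM. Log2 fold changes ran from -0.21 to 0.25, 0 members were called, 0 had an unadjusted p under 0.05 and 0% of genes were called. The 95% confidence intervals reached from -1.38 to 1.22 over the members. Tap1 was at 115, 56.5, 287 and 151 CPM and Nlrc5 at 30.5, 10.7, 68.6 and 33.2, with replicate 2 lowest and replicate 3 highest of the 4 in both.

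AhR-/- against CYP1B1-/- after HDM gave 0 called members by edgeR's quasi-likelihood test, with 0.00706% of genes called. The likelihood ratio test called 6 members and 17.5% of genes, DESeq2 6 and 20.5%, and limma voom 10 and 30.4%. All 10 members had a negative log2 fold change, with a median of -1.27 against -0.10 over all genes, and 7 had an unadjusted p under 0.05, as had 29.9% of all genes. The lowest adjusted p was 0.0638, for Tap1 (log2 fold change -2.24) and Nlrc5 (-2.05). The comparisons with WT and with CYP1B1-/- share the AhR-/- libraries. By the quasi-likelihood test the count was 5 without AhR-/- replicate 2, where 18.8% of genes were called, and 6 without CYP1B1-/- replicate 2, where 20.7% were.

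The difference of the AhR effect between HDM and steady state was tested as an interaction over all 22 libraries. It was negative for all 10 members, with a median of -1.34 against 0.02 over all 16639 genes, and 0 members were called by edgeR (background 0%). An unadjusted p under 0.05 was found for 18.3% of all genes and for 5 members, which were Tap1 (-2.13, adjusted p = 0.155), Psmb9 (-1.95, 0.167), Psmb8 (-1.78, 0.198), Tap2 (-1.68, 0.167) and Tapbp (-1.29, 0.208). For the CYP1B1 effect the values ran from -0.48 to 0.27, with 0 members called (background 0%) and 0 at an unadjusted p under 0.05. For the AhR effect DESeq2 called 3 members and 7.43% of all genes, and limma voom called 9 members and 30.3% of genes. Without the Gm10800 libraries 1 member and 3% of genes were called, and without AhR-/- HDM replicate 2 these were 3 members and 6.14%. For the CYP1B1 effect DESeq2 called 0 members and 0 genes.

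The proteasome subunits allow a comparison within a library that no scaling can move, the count ratio of an induced subunit to the constitutive subunit it replaces. The ratios were chosen after the levels had been seen, and 21 comparisons were made over 3 ratios. Psmb9 to Psmb6 was 0.102 to 0.151 in the 10 steady-state libraries. After HDM it was 1.91, 1.16, 1.79 and 2.56 in WT, 0.377, 0.795, 0.0935 and 0.170 in AhR-/- and 1.64, 0.564, 3.06 and 1.36 in CYP1B1-/-.

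All 4 AhR-/- values were under all 4 WT values, and replicate 3, whose ratio rests on 26 Psmb9 counts, was below the steady-state range. The difference of AhR-/- from WT was -2.76 on the log2 scale (two-sided exact permutation test, n = 4 and 4, p = 0.0286, the smallest this design allows, adjusted p = 0.109). Psmb8 to Psmb5 was 6.94, 5.62, 8.94 and 9.10 in WT and 8.05, 3.56, 1.97 and 1.72 in AhR-/-, with replicate 1 inside the WT range (difference -1.26, exact permutation p = 0.0857, adjusted p = 0.15, n = 4 and 4). Psmb10 to Psmb7 overlapped as well (difference -0.29, exact permutation p = 0.171, adjusted p = 0.277, n = 4 and 4). In Psmb9 to Psmb6, Psmb8 to Psmb5 and Psmb10 to Psmb7, CYP1B1-/- differed from WT after HDM by -0.35, -0.06 and 0.10, with exact permutation p = 0.629, 0.943 and 0.457 (n = 4 and 4).

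At steady state Psmb10 to Psmb7 separated both knockouts from WT in opposite directions, with a difference of -0.33 in AhR-/- and 0.34 in CYP1B1-/-, each at the smallest exact permutation p of 0.0571 (n = 3 and 4, adjusted p = 0.109). Without CYP1B1-/- replicate 2, whose ratio rests on 39 and 77 counts, the second difference was 0.14. The other 4 steady-state genotype differences ran from -0.19 to -0.02, with exact permutation p from 0.229 to 0.971 (n = 3 and 4). From steady state to HDM the differences of the 3 ratios were 1.22 to 2.36 in AhR-/- and 1.13 to 3.49 in CYP1B1-/- on the log2 scale. None passed the exact permutation test, with adjusted p from 0.109 to 0.32. The smallest in AhR-/-, that of Psmb9 to Psmb6, had overlapping groups.

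From steady state to HDM in WT the ratios rose by 3.79 for Psmb9 to Psmb6, 3.53 for Psmb8 to Psmb5 and 1.37 for Psmb10 to Psmb7 on the log2 scale. Each had the smallest exact permutation p, 0.0286, with an adjusted p of 0.109, so no ratio passes after adjustment in a design of this size. Psmb6 itself was at 120 CPM in AhR-/- and 84.2 in WT after HDM (log2 fold change 0.54, adjusted p = 0.167), and Psmb5 was lower in AhR-/- (-0.81, adjusted p = 0.0433).

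**Figure D5:**
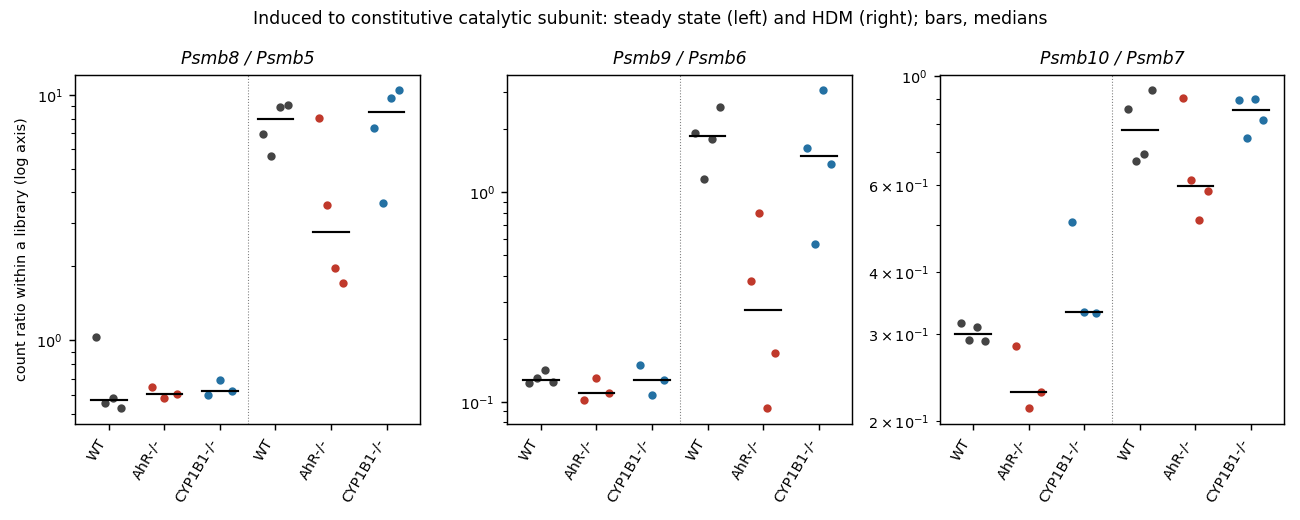
Count ratio of each induced catalytic subunit to its constitutive counterpart within a library (vertical axes, log scale), by genotype, with steady state left and HDM right of the dotted line and bars at medians. For Psmb9 to Psmb6 the AhR-/- HDM libraries, at 0.0935 to 0.795, sit under the WT HDM libraries, at 1.16 to 2.56.

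Other genes of the pathway, from lists of the same kind, are read against the 12.9% of all genes that were lower and the 9.22% that were higher in AhR-/- than in WT after HDM, and against 19.0% higher and 19.4% lower in the state change in WT. Among 5 proteasome activator and assembly genes, 1 was lower and 1 higher, namely the PA28 subunit Psme1 (61.2 against 171 CPM, log2 fold change -1.46, adjusted p = 0.0414) and the PA200 gene Psme4 (1.01, adjusted p = 0.0282). The median of that list was -0.49. Among 8 loading and trimming genes 1 was lower, the chaperone gene Calr (-0.97, adjusted p = 0.0491), a share near that of all genes, and the median was -0.38. In WT the state change gave 3 higher of the 5 (Psme1 at 2.76, Psme2 at 1.84 and the assembly factor gene Pomp at 1.52 on the log2 scale) and 1 higher of the 8, Calr at 1.85, again no more than the share of all genes.

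Of 13 nonclassical class I genes tested in the state change in WT, 9 rose and 1 fell. Those of lowest p had log2 fold changes of 6.76 for H2-Q7, 6.58 for H2-Q6, 3.54 for Cd1d1 and 2.66 for H2-T23, and the near-identical H2-Q genes may share reads. Mr1, which presents vitamin B metabolites to MAIT cells, fell by 2.33 on the log2 scale (adjusted p = 0.000336). In AhR-/- against WT after HDM 2 of the 13 were lower and 1 was higher, near the shares of all genes. H2-T23 (-1.53, adjusted p = 0.0318), which encodes the CD94 ligand Qa-1, and H2-M3 (-1.17, adjusted p = 0.0395) were lower and Mr1 was higher (1.72, adjusted p = 0.0296). The list's median was -1.07.

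Of 12 regulators, 4 were lower in AhR-/- after HDM and 1 higher. Ciita, the class II transactivator of the same family as Nlrc5, was at 25.0 against 244 CPM (-3.25, adjusted p = 0.0268), and Stat2 (-1.47, adjusted p = 0.0272), Irf9 (-1.04, adjusted p = 0.0416) and Stat3 (-1.05, adjusted p = 0.0367) were lower. Stat2 and Irf9 encode parts of the complex that answers type I interferon. Rfxap, a subunit of the RFX complex that binds the X box, was higher (1.51, adjusted p = 0.0359). Irf1 (-0.84, adjusted p = 0.125), an interferon-induced activator of class I genes, did not pass. In WT after HDM 4 of the 12 rose, namely Ciita (6.95), Nfkb1 (3.74), Irf1 (1.49) and Irf9 (1.32 on the log2 scale).

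Of 9 interferon receptor, kinase and feedback genes, 3 were lower in AhR-/- after HDM, which were Tyk2 (-2.29, adjusted p = 0.0261), Socs1 (-2.06, adjusted p = 0.0313) and Jak1 (-0.90, adjusted p = 0.0445), and all 9 were negative with a median of -1.06. The interferon genes Ifng, Ifnb1, Ifnl2 and Ifnl3 did not pass the filter, with at most 30 counts in a library for Ifng and 4 for the other 3. Of 4 genes of cells that read class I, Cd8a was lower (-1.55, adjusted p = 0.044) while Klrd1 (-2.56, adjusted p = 0.0567), Klrk1 (-1.96, adjusted p = 0.089) and Cd8b1 (-0.23) did not pass. In WT after HDM, 3 of these 4 rose, namely Klrd1 (69.6 against 0.719 CPM), Klrk1 (27.7 against 1.26) and Cd8a (5.10 against 0.438). In the comparisons of CYP1B1-/- with WT and in the steady-state genotype comparisons, 0 genes of these lists were called in either direction (edgeR).

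Members varied together among the HDM libraries. Over the 12 HDM libraries, Pearson's r of log2(CPM + 1) between members had a median of 0.855 over 45 pairs and ran from 0.563 for B2m and Nlrc5 to 0.989 for Psmb8 and Psmb9, with 15 pairs over 0.9. Over the 10 steady-state libraries the median was 0.186 and the range -0.82 for B2m and Nlrc5 to 0.931 for B2m and Tapbp, a pair that shares the low library CYP1B1-/- replicate 2. The points share depth, scaling and marker content, so these are descriptions.

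The 5 genes most like the members' mean standardized level over the HDM libraries were Cdk4 (r = 0.983), Bcl2l14 (0.982), Rpl6 (0.979), Zfp710 (0.978) and Rpl7 (0.977), and over the steady-state libraries Eno4 (0.980), Iars (0.963), Papola (0.961), Snrpa1 (0.957) and Babam1 (0.956). No gene stood in both sets. Cdk4 ranged from 18.7 to 89.7 CPM over the HDM libraries.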

How the data were processed

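RNA of sorted lung ECs was sequenced from 22 libraries. Per the submitters' notes, reads were aligned by GSNAP to mm10 (GRCm38), and featureCounts 2.0.0 gave the read number of each Ensembl gene. The deposited values are raw counts, whole numbers that the authors did not normalize. Handling of strand and of reads with several positions is not given in the sources used here. Symbols, biotypes and exon lengths came from GENCODE M21, which covers 54147 of the 54373 genes.

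Tests used R 4.3.3 and edgeR 4.0.16 on protein-coding genes, with filterByExpr (minimum count 10, minimum total 15), TMM, robust glmQLFit and glmQLFTest, and a Benjamini-Hochberg adjusted p of at most 0.05 over all genes. The genotypes of a state shared 1 fit, and state changes and interactions came from 1 fit of all libraries. SE was taken as the size of the log2 fold change over the root of F. Levels in CPM share 1 TMM scale over the 22 libraries, where 3 counts equal 0.107 to 1.36 CPM, and log2 values add 1. Alternatives were the likelihood ratio test, DESeq2 1.42.0, limma voom (3.58.1) with sample weights, RLE scaling, no filter, all genes, no dominant predicted genes, a replicate block, a hematopoietic covariate and libraries left out. Leaving out libraries dominated by Gm10800 was chosen after seeing the data. Scripts were tested on simulated data.

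All 10 members are named. Genes of other lists are named where they passed, at most 4 of lowest p per list and comparison, or where their role calls for it, with the 5 genes of most similar pattern per table. Members and lists were chosen with earlier results of these data known. Same-numbered libraries of different genotypes did not deviate together throughout (3 of 12 correlations over 0.1 after HDM, median -0.19, and 2 of 8 at steady state). The 3 after HDM were 0.71 and 0.67 for CYP1B1-/- and WT replicates 2 and 3 and 0.57 for AhR-/- and WT replicate 1. These lay above the highest value of differently numbered libraries, 0.51. No source used here states a pairing, so replicate numbers were not taken as pairs, and a shared origin of some is not excluded. The subunit ratios and the motif spacing were looked at after values had been seen.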

Additional observations from a re-analysis of the deposited data

Results flagged for a closer look

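Among 52 groups of 4 libraries examined for the members' CPM and the subunit ratios, 1 held a library whose gap to its nearest neighbour passed Dixon's 95% critical value of 0.829, and chance alone flags some of so many groups. The count ratio of Psmb8 to Psmb5 was 1.04 in WT steady-state replicate 1 and 0.532 to 0.585 in the other 3, a gap of 0.894 of the range. In the same library Ptprc was at 52.6 CPM, against 2.02 to 14.5 in the other WT steady-state libraries, and the hematopoietic marker mean was 3.93 against 1.29 to 2.66. The part of these markers in the ratio was not tested. By edgeR's quasi-likelihood test no interaction of genotype and state passed for a member. For the AhR interaction DESeq2 called 3 members and 7.43% of all genes, and limma voom 9 and 30.3%.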

How the results depend on the processing

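Of the recomputed counts of called members, 183 stayed within 1.5 times the value reported and 28 did not. Counts stayed at 0 under every alternative run in the 3 steady-state comparisons, in CYP1B1-/- against WT after HDM and in the CYP1B1 interaction. Of the alternatives that moved a count, those below are given with the percentage of all genes called in the same fit, in either direction. For AhR-/- against WT after HDM (6 reported) no filter gave 3 (8.41%), the hematopoietic covariate 0 (0%) and omitting the Y-linked libraries 0 (0%). Leaving out those dominated by Gm10800 gave 3 (12.3%), and the range over single libraries left out was 0 to 6 (0% to 29%). For AhR-/- against CYP1B1-/- after HDM (0 reported) the likelihood ratio test gave 6 (17.5%), DESeq2 6 (20.5%) and voom 10 (30.4%). Leaving out the Gm10800 libraries gave 3 (8.42%), with 0 to 6 over single libraries (0% to 20.7%). For the rise in AhR-/- (5 reported) DESeq2 gave 8 (27.5%), of which 1 was lower (Tapbp), and the covariate 0 (2.44%). Omitting the Y-linked libraries gave 8 (23.6%) and omitting the Gm10800 libraries 8 (28.3%), with 5 to 8 over single libraries (8.93% to 23.7%). The covariate gave 1 (0.325%) for the rise in WT (9 reported) and 0 (1.62%) in CYP1B1-/- (8 reported). For the AhR interaction (0 reported) DESeq2 gave 3 (7.43%), voom 9 (30.3%) and leaving out the Gm10800 libraries 1 (3%), with 0 to 3 over single libraries (0% to 6.14%). The cause was not tested.

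With the replicate number as a block, 0 members and 0.00706% of all genes were called for AhR-/- against WT after HDM. Of the members, 7 had an unadjusted p under 0.05, and the share of all genes under it in this fit is not given here. The block changed no other count. Same-numbered libraries do not share a known origin.

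Of the recomputed log2 fold changes of single members, 867 kept their direction and side of the threshold, 80 lost and 50 gained the call and 18 changed sign. None of the 18 passed the test under that alternative. Under the covariate these were B2m in AhR-/- against WT after HDM (0.16), Tap2 (-0.26) and Tapbp (-0.41) in the WT rise, Tap1 in the AhR-/- rise (-0.67), and Tap2 (-0.56) and Tapbp (-0.47) in the CYP1B1-/- rise, where Tapbp was also negative with voom (-0.23). Without the libraries with Y-linked reads these were H2-K1 (0.039) and B2m (0.094) in AhR-/- against WT after HDM, Tap2 in the AhR-/- rise (0.41) and H2-K1 in the AhR interaction (0.10). Without the Gm10800 libraries the same 4 were 0.12, 0.18, 0.38 and 0.22, and B2m in the interaction was 0.094. Tap2 in the AhR-/- rise ran from -0.68 to 0.14 over single libraries left out. Depth limits the lowest values, since 3 counts equal 1.36 CPM in AhR-/- HDM replicate 3.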
